A study of Mus musculus with 8 samples.

Results

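The insulin-like growth factor (IGF) genes examined here were the ligands Igf1 and Igf2, the noncoding RNA H19, the receptor gene Igf1r and the binding protein genes Igfbp2, Igfbp3, Igfbp4, Igfbp5, Igfbp6 and Igfbp7. They are 10 of the 28956 genes in the tables, and they were chosen by name, with earlier results of these data known. Stromal cells of the femur of C57BL/6 female mice at 12 weeks of age were profiled by droplet single-cell RNA sequencing. In the Fracture group the left leg had been broken by bending at 10 weeks of age, the bone was held by an intramedullary nail, and cells were taken at day 14. The Control group was wild-type and unfractured, and no nail, anaesthesia or analgesic is described for it. These may thus have differed together with the fracture. In both groups magnetic beads had removed blood lineage cells and those with CD45 or CD117, and neither the number of animals behind a preparation nor their pooling was stated.

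Each group held 2 cell preparations of 2 libraries each, called Control 1, Control 2, Fracture 1 and Fracture 2. The 8 libraries held 56543151 to 89126291 unique molecular identifiers (UMIs, each standing for 1 captured RNA molecule), and 7921 to 12785 cells per preparation were kept. The tables of the Control group reached down to barcodes of 1 UMI, whereas no Fracture barcode held under 1929 UMIs, so the barcodes of the groups had been selected differently before deposit. Median depth of the kept cells was 7302 and 8278 UMIs in the Control preparations and 11011 and 11694 UMIs in the Fracture preparations. Any 2 libraries shared at most 46 cell barcodes.

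Cells outside the blood fell into 6 classes named from marker genes, with the 10 genes kept out of the clustering. Chondrocyte-like, osteoblast-like, bone marrow stromal cell (BMSC)-like, fibroblast-like, endothelial-like and smooth muscle-like cells carried 6 to 8 of the 8 markers listed for their class. The label of the BMSC-like class was weaker after fracture. Its 8 markers, among them Cxcl12, Lepr and Adipoq, summed to 31384 and 32453 CPM (UMIs scaled to 1000000 UMIs in the class) in Control and 2233 and 2569 CPM in Fracture, while 8 fibroblast markers in the same cells went from 108 and 41.1 to 883 and 1063 CPM. The fibroblast marker Kera had no UMI in the Control cells of this class. BMSC-like results therefore compare cells of 1 cluster whose marker content also differed, and the part of that difference in the results was not tested.

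IGF-1 and IGF-2 are secreted growth factors that act on the receptor tyrosine kinase encoded by Igf1r, through the insulin receptor substrates, phosphoinositide 3-kinase and Akt. In bone they are known for promoting growth plate chondrocyte growth and osteoblast function, and growth hormone is a classical inducer of Igf1. The binding proteins hold the ligands in the extracellular fluid, prolong their life or keep them from the receptor, and release them when proteases such as pappalysin cut them. H19 lies beside Igf2, is expressed from the maternal chromosome where Igf2 is expressed from the paternal one, and hosts miR-675.

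On the GRCm38 assembly, H19 occupied chr7:142575529-142578143 and Igf2 chr7:142650766-142666816, both on the minus strand and 72.6 kb apart with no protein-coding gene between them. Igfbp2 (chr1:72824503-72852474, plus strand) and Igfbp5 (chr1:72857932-72874884, minus strand) faced each other across 5.46 kb. Igfbp3 (chr11:7206086-7213923, minus strand) lay 3.54 kb from Igfbp1, and Igfbp4 (chr11:99041244-99054392, plus strand) was on the same chromosome. The remaining genes were Igf1 at chr10:87858265-87937042 and Igf1r at chr7:67952827-68233668, both on the plus strand, Igfbp6 at chr15:102144362-102149511 on the plus strand and Igfbp7 at chr5:77349240-77408041 on the minus strand. Antisense genes overlap Igf1 and Igf2, and genes of the opposite strand overlap Igfbp7 and H19. No source states whether the counting used strand, so reads of these overlaps cannot be told apart. The protein-coding gene Gm49394 overlaps Igf2 on the same strand, and the share of reads it took was not examined.

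The microRNAs inside the H19 and Igf2 genes are shown because a UMI of the host gene says nothing of the mature microRNA, which was not measured. Their mature sequences, from RefSeq on GRCm38.p6, are all on the minus strand of chromosome 7, at 142577112-142577133 and 142577078-142577099 for miR-675 and at 142654968-142654989 and 142654932-142654952 for miR-483. Capitals mark the seed, bases 2 to 8, and no seed is shared among the 4.
mmu-miR-675-5p: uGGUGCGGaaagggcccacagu
mmu-miR-675-3p: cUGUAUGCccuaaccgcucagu
mmu-miR-483-5p: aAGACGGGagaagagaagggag
mmu-miR-483-3p: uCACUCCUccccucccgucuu

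The promoters of Igfbp3, Igfbp4 and Igfbp5 are shown because these binding protein genes fell together in BMSC-like cells. The 200 bases upstream of each RefSeq start on GRCm38.p6 lie at chr11:7213924-7214123 (minus strand) for Igfbp3, chr11:99041044-99041243 (plus strand) for Igfbp4 and chr1:72874866-72875065 (minus strand) for Igfbp5. Capitals mark any of 4 motifs searched on both strands, which were the TATA box TATAAA, the GC box GGGCGG, the CCAAT box CCAAT and the RUNX site TGTGGT.
Igfbp3: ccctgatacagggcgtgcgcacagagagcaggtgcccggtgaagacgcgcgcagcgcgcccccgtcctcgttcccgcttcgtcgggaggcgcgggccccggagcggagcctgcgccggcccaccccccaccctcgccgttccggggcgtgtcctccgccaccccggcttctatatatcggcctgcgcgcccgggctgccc
Igfbp4: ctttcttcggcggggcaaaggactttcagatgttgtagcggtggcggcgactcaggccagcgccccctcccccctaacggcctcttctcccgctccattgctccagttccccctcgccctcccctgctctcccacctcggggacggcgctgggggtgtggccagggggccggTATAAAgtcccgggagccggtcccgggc
Igfbp5: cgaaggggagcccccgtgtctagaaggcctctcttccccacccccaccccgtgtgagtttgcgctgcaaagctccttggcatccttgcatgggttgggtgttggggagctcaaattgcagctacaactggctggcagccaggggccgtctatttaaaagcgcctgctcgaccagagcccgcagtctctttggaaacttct

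In the 250 upstream bases searched, Igfbp4 held 1 TATA box, Igfbp3 held 1 RUNX site, which lies upstream of the bases printed, and Igfbp5 held none of the 4 motifs. The shares of 32841 promoters of this length with a match were 12.4% for the TATA box, 32.7% for the GC box, 33.9% for the CCAAT box and 14.0% for the RUNX site. These matches describe letters in a window and are not binding sites.

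To ask how fracture changed these genes in each class, UMIs were summed per preparation and class and compared by the edgeR quasi-likelihood test, with an adjusted p under 0.05 over all genes of the class as the call. Of 60 pairs of gene and class, 59 could be tested, 21 were higher in Fracture and 15 were lower. The genes moved in different directions in different classes. How many classes a gene was called in is given without the share of all genes called in as many, which was not counted. H19 was higher in 6 of 6 classes and Igfbp6 in 5 of 6, of which the osteoblast-like H19 level in Fracture was no higher than that of erythroid-like cells and the smooth muscle-like Igfbp6 call rested on 1 Control UMI and changed direction without integration. Igfbp5 was lower in 4 and Igf1r and Igfbp4 were each lower in 3. Igf1 was higher in 3 and lower in 1. Igf2 was higher in 2, of which the BMSC-like rise changed direction without integration, and lower in 1. With n = 2 preparations per group the p-values measure the spread between preparations, which may be technical. Without Fracture 1 or without Fracture 2, edgeR called no gene at all in osteoblast-like, fibroblast-like or endothelial-like cells, although 4 to 8 of the genes here and 1696 to 4333 of all genes had an unadjusted p under 0.05. Ranges of log2 fold changes given with a result are over the 4 refits that each left out 1 preparation.

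Many genes passed the test in some classes, so counts of the 10 genes are given beside the shares of all tested genes that were called higher and called lower. Since the genes were chosen with earlier results known, the counts describe them and no excess was tested. Among chondrocyte-like cells 5 of 10 were higher and none lower, against 19.2% and 18.1% of all genes, in a class whose subclusters had different shares in the groups. In osteoblast-like cells 3 of 9 were higher and none lower, against 10% and 6.87%, but these were H19, Igfbp6 and Igfbp7, whose Fracture levels lay below (H19 and Igfbp7) or not far above (Igfbp6) those of erythroid-like cells. In fibroblast-like cells 3 were higher and 3 lower of 10, against 8.23% and 7.74%. BMSC-like cells had 4 higher and 4 lower of 10 against 25.6% and 26.1% of all genes, the largest background of the 6. Endothelial-like cells had 4 higher and 5 lower of 10 against 19.4% and 17.2%, and smooth muscle-like cells 2 higher and 3 lower of 10 against 13.6% and 12.5%. Neither of these classes was clustered again. A shift in their mixture of cells cannot be told apart here from change within a cell type. The median log2 fold change (Fracture over Control) of the 10 genes was 1.399 in chondrocyte-like and -0.34 in BMSC-like cells, where the medians over all genes were 0.00 and -0.03.

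**Figure D1:**
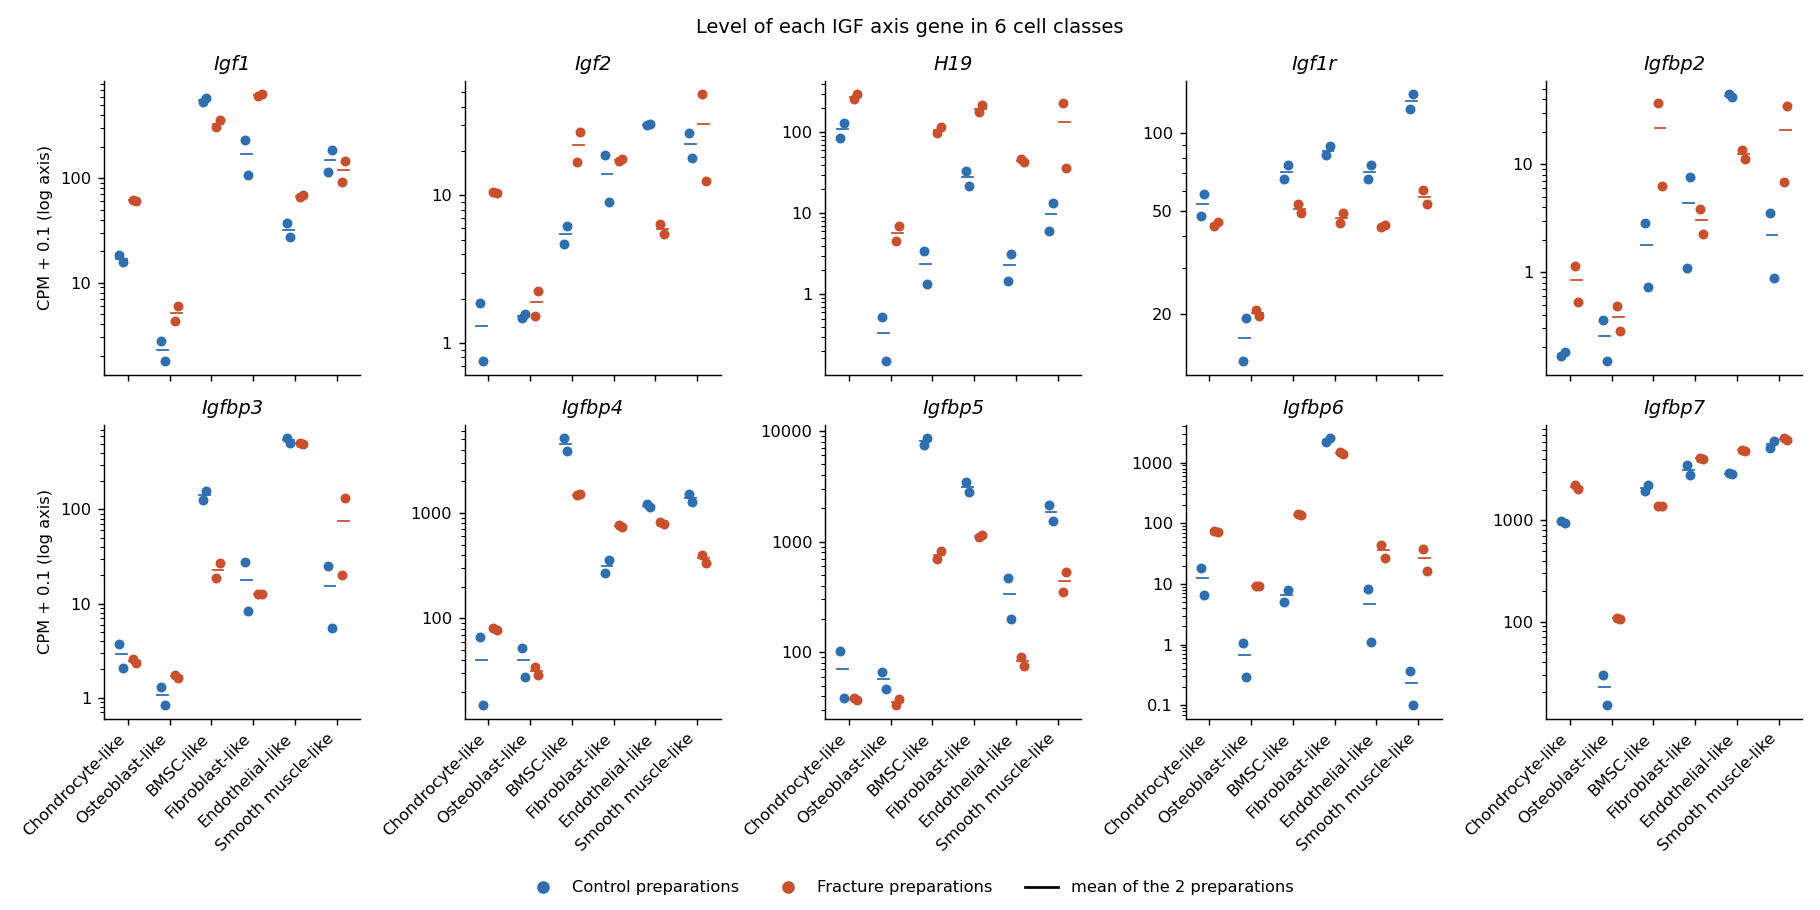
Level of each gene by cell class, in CPM plus 0.1 on a log axis, with 1 point per preparation (Control and Fracture in separate colours) and a line at the mean of the 2 preparations of a group. The Fracture points of H19 lie above the Control points in all 6 classes, and those of Igfbp5 lie below in BMSC-like, fibroblast-like, endothelial-like and smooth muscle-like cells.

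**Figure D2:**
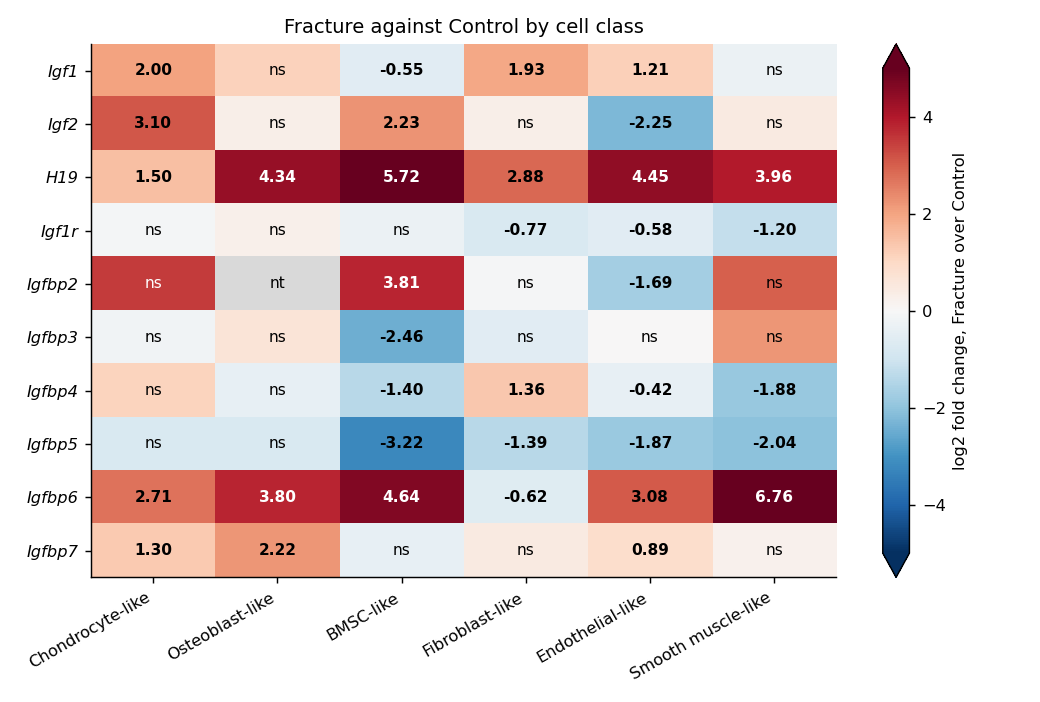
Log2 fold change (Fracture over Control) of each gene in 6 cell classes from the edgeR fits, as a colour scale that ends at -5 and 5. Bold numbers are genes called at an adjusted p under 0.05, ns marks those not called and nt the 1 pair not tested, Igfbp2 in osteoblast-like cells. H19 has a called value in every column.

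Igf1, the ligand gene classically induced by growth hormone, was highest in BMSC-like cells of Control and in fibroblast-like cells of Fracture. In BMSC-like cells its level was 533 and 579 CPM in Control 1 and 2 and 306 and 357 CPM in Fracture 1 and 2. Both Fracture preparations were below both Controls, and Igf1 fell by 0.55 ± 0.12 on the log2 scale (SE, edgeR adjusted p = 0.0181). In fibroblast-like cells its level went from 232 and 108 CPM to 607 and 631 CPM, with the Control preparations far from each other and both below the Fracture preparations. The log2 fold change was 1.93 ± 0.38 (adjusted p = 0.036) and was not called with the replicate number as a block (2.05, adjusted p = 0.0655). Each SE of a log2 fold change here is that change divided by the square root of the F statistic of the edgeR test. Where Control UMIs were few, such an SE may understate the error, and it was not set against counting error.

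The level of Igf1 also rose in chondrocyte-like cells, from 18.2 and 15.6 CPM to 61.9 and 60.03 CPM, and in endothelial-like cells, from 37.2 and 26.95 CPM to 66.3 and 69.5 CPM. The groups did not overlap in either class. The log2 fold changes were 2.00 ± 0.09 (adjusted p = 0.00131) and 1.21 ± 0.17 (adjusted p = 0.0112). Smooth muscle-like cells had 113 and 186 CPM in Control and 91.9 and 145 CPM in Fracture, which overlapped, and osteoblast-like cells 2.64 and 1.67 CPM and 4.18 and 5.91 CPM, and neither was called. The chondrocyte-like call held when any 1 preparation was left out, with a log2 fold change of 1.91 to 2.11 and the adjusted p up to 0.0413. The BMSC-like, fibroblast-like and endothelial-like calls were lost without Fracture 1 and without Fracture 2, with log2 fold changes of -0.67 to -0.42, 1.48 to 2.64 and 0.99 to 1.44 and adjusted p up to 0.112, 0.253 and 0.12.

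Igf2, the ligand prominent in fetal growth, was highest in endothelial-like cells of Control and lost that place after fracture. Its endothelial level was 29.95 and 30.3 CPM in Control and 6.28 and 5.35 CPM in Fracture, in a class that was not clustered again. The groups were well apart, and Igf2 fell by 2.25 ± 0.12 on the log2 scale (adjusted p = 0.00511), a call that was lost without Fracture 1 or Fracture 2 although the log2 fold change stayed at -2.35 to -2.14 (adjusted p up to 0.108). In chondrocyte-like cells the level was 1.77 and 0.650 CPM in Control and 10.5 and 10.2 CPM in Fracture, every Fracture value above every Control value, with a log2 fold change of 3.10 ± 0.36 (adjusted p = 0.00696). This call was also lost when either Fracture preparation was left out, at 2.71 to 4.13 and an adjusted p of up to 0.0841.

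In BMSC-like cells the level of Igf2 rose from 4.57 and 6.14 CPM to 16.9 and 27.01 CPM, with a log2 fold change of 2.23 ± 0.31 (adjusted p = 0.00577). The call held when any 1 preparation was left out (log2 fold change 1.85 to 2.55), but it changed with the Fracture cells placed in the class. Clustered without integration of the libraries, the class held 585 and 620 Fracture cells in place of 1054 and 1132, and the log2 fold change was -0.18 (adjusted p = 0.759). Igf2 was not called in fibroblast-like cells (18.7 and 8.96 CPM in Control, 16.9 and 17.7 CPM in Fracture), in smooth muscle-like cells (26.6 and 17.9 CPM and 48.4 and 12.4 CPM) or in osteoblast-like cells (1.38 and 1.47 CPM and 1.43 and 2.14 CPM).

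H19, the noncoding neighbour of Igf2, was highest in chondrocyte-like cells in both groups. It was called higher in every class, but the osteoblast-like level lay near background and the smooth muscle-like call rested on few cells. Its chondrocyte level was 85.5 and 132 CPM in Control and 260.2 and 296 CPM in Fracture, and the log2 fold change was 1.50 ± 0.24 (adjusted p = 0.0141). In fibroblast-like cells it went from 33.7 and 21.7 CPM to 178 and 217 CPM, with a fitted log2 fold change of 2.88 ± 0.26 (adjusted p = 0.00775). Both Fracture preparations exceeded both Controls in these classes. Without Fracture 1 or Fracture 2 neither was called, with log2 fold changes of 1.21 to 1.86 and 2.62 to 3.31 and adjusted p of up to 0.105 and 0.115.

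H19 also rose in BMSC-like and endothelial-like cells, where little was found in Control. The level was 3.33 and 1.26 CPM in Control and 99.4 and 115 CPM in Fracture, a log2 fold change of 5.72 ± 0.49 (adjusted p = 0.00239) that stayed called without any 1 preparation (5.20 to 6.61) and was 3.12 (adjusted p = 0.00391) without integration. Endothelial-like cells went from 1.36 and 3.08 CPM to 46.3 and 42.6 CPM (4.45 ± 0.37 on the log2 scale, adjusted p = 0.006), and this call was lost when either Fracture preparation was left out (3.95 to 5.14, adjusted p up to 0.108). Chondrocyte markers stood beside these values. Their summed level in BMSC-like cells was 4.54 and 3.93% of that over all cells in Control and 4.90 and 5.19% in Fracture, while H19 itself stood at 15.2 and 6.89% and at 52.7 and 54.9%. In endothelial-like cells the chondrocyte markers were at 10.6 and 8.62% and 22.6 and 23.5%, and H19 at 6.22 and 16.8% in Control and 24.6 and 20.2% in Fracture. These percents are of a level over all cells, among which chondrocyte-like cells became more frequent (22.6% and 13.6% of the 6 classes in Control, 58.9% and 57.6% in Fracture). An equal percent is thus not an equal CPM. In dpMSC-like cells, most of them in the BMSC-like class, the summed chondrocyte markers rose in CPM, as given below. The part of RNA from other cells in the BMSC-like and endothelial-like values was not tested.

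In smooth muscle-like cells H19 rested on few cells. Its level was 6.00 and 13.2 CPM in Control and 229 and 36.5 CPM in Fracture (3.96 ± 0.99 on the log2 scale, adjusted p = 0.0391). Of 374 UMIs in Fracture 1, 278 came from 2 cells, and of 62 UMIs in Fracture 2, 36 came from 1 cell. The call was lost without Control 1 (3.36, adjusted p = 0.0843), without Fracture 1 (2.05, adjusted p = 0.11), with the replicate block (3.59, adjusted p = 0.112), with doublets left out (4.81, adjusted p = 0.055) and without integration (3.63, adjusted p = 0.0669).

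Osteoblast-like cells had 0.418 and 0.0490 CPM of H19 in Control and 4.40 and 6.89 CPM in Fracture, a log2 fold change of 4.34 ± 0.61 (adjusted p = 0.0171). Erythroid-like cells, which should lack H19, moved alike, from 0 and 0.285 CPM to 8.89 and 11.4 CPM. A UMI of H19 was found in 4.65% and 5.99% of osteoblast-like cells of Fracture 1 and 2 (median depth 11546 UMIs) and in 7.58% and 5.28% of erythroid-like cells (median depth 7278 UMIs). The osteoblast value was thus at or near the level of cells that should lack the gene and is not read as expression. What gives that level was not tested. With each cell thinned to 1000 UMIs, H19 was found in 6.26% and 6.80% of BMSC-like and 2.32% and 1.64% of endothelial-like cells of Fracture, against 1.42% and 0.352% of erythroid-like cells. The osteoblast call was lost when either Fracture preparation was left out (3.72 to 6.61, adjusted p up to 0.167) and with the replicate block (4.31, adjusted p = 0.0547).

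Igf1r, which encodes the signalling receptor for both ligands, fell in 3 classes and was not called in the others. Smooth muscle-like cells had 124 and 141 CPM in Control and 60.04 and 52.97 CPM in Fracture, and Igf1r fell by 1.20 ± 0.15 on the log2 scale (adjusted p = 0.00608). In fibroblast-like cells the level went from 82.2 and 88.9 CPM to 44.8 and 49.3 CPM (log2 fold change -0.77 ± 0.12, adjusted p = 0.0204). In endothelial-like cells it went from 66.5 and 75.6 CPM to 43.3 and 44.2 CPM (log2 fold change -0.58 ± 0.10, adjusted p = 0.017). The groups did not overlap in any of these classes. All 3 calls were lost without Fracture 1 or without Fracture 2, where the log2 fold changes ran over -1.29 to -1.11, -0.85 to -0.70 and -0.68 to -0.48 with adjusted p up to 0.0564, 0.289 and 0.157, and the fibroblast call was also lost with the replicate block (-0.78, adjusted p = 0.059). Chondrocyte-like cells had 47.6 and 58.4 CPM and 43.7 and 45.4 CPM, BMSC-like cells 66.7 and 75.1 CPM and 53.00 and 48.9 CPM, and osteoblast-like cells 13.02 and 19.2 CPM and 20.7 and 19.6 CPM.

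Igfbp5, the binding protein gene that was highest in BMSC-like cells of Control, had the largest fall of the 10 genes in the 6 classes. Its BMSC level was 7481 and 8569 CPM in Control and 693 and 813 CPM in Fracture. No value of 1 group came near the other, and Igfbp5 fell by 3.22 ± 0.22 on the log2 scale (adjusted p = 0.00173), at -3.34 to -3.09 when 1 preparation was left out and called each time. The level also fell in fibroblast-like cells, from 3440.2 and 2814 CPM to 1098 and 1149 CPM (log2 fold change -1.39 ± 0.18, adjusted p = 0.0154), which left this class with the highest Fracture level. The fibroblast call was lost when either Fracture preparation was left out (-1.55 to -1.21, adjusted p up to 0.26) and with the replicate block (-1.38, adjusted p = 0.0523).

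In smooth muscle-like cells Igfbp5 went from 2140.4 and 1523 CPM to 351 and 526 CPM (log2 fold change -2.04 ± 0.27, adjusted p = 0.0073), and the call was lost without Fracture 1 alone (adjusted p = 0.0598). In endothelial-like cells it went from 466 and 199 CPM to 91.2 and 75.4 CPM (log2 fold change -1.87 ± 0.42, adjusted p = 0.0306). The endothelial value moved to -1.19 (adjusted p = 0.0279) with doublets left out, and the call was lost without Fracture 1 or Fracture 2 (adjusted p up to 0.19). It ran from -2.37 without Control 2 to -1.15 without Control 1. Chondrocyte-like cells (103 and 38.2 CPM in Control, 38.3 and 36.8 CPM in Fracture) and osteoblast-like cells (66.8 and 46.4 CPM and 33.1 and 37.3 CPM) had the lowest levels, and neither was called.

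Igfbp4, whose product is a classical target of pappalysin, was highest in BMSC-like cells in both groups. There it went from 5116 and 3878 CPM to 1475 and 1514 CPM, and in smooth muscle-like cells from 1511 and 1266 CPM to 401 and 338 CPM. The Fracture values were far below the Controls in both classes. The log2 fold changes were -1.40 ± 0.19 (adjusted p = 0.00587) and -1.88 ± 0.17 (adjusted p = 0.00378), and the second was called whichever preparation was left out, while the first was lost when either Fracture preparation was left out (-1.58 to -1.17, adjusted p up to 0.0752). Endothelial-like cells had 1208 and 1131 CPM and 821 and 780.2 CPM, and Igfbp4 fell by 0.42 on the log2 scale (adjusted p = 0.0197).

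Fibroblast-like cells went the other way for Igfbp4. The level was 269.7 and 357 CPM in Control and 773 and 739 CPM in Fracture, without overlap, and the log2 fold change was 1.36 ± 0.16 (adjusted p = 0.0127). The endothelial and fibroblast calls were both lost without Fracture 1 or Fracture 2, with log2 fold changes over -0.48 to -0.39 and 1.20 to 1.55 and adjusted p up to 0.16 and 0.178. Igfbp4 was not called in chondrocyte-like cells (66.1 and 14.9 CPM in Control, 80.4 and 77.1 CPM in Fracture), where the Control preparations lay far apart, or in osteoblast-like cells (52.6 and 27.5 CPM and 34.5 and 28.6 CPM).

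Igfbp3, whose product carries most circulating IGF, was called in 1 class. Its BMSC level was 126 and 158 CPM in Control and 18.6 and 26.8 CPM in Fracture, and it fell by 2.46 ± 0.23 on the log2 scale (adjusted p = 0.00282), with all 4 refits that left out 1 preparation still called (-2.74 to -2.20) and a log2 fold change of -3.11 without integration. Endothelial-like cells had the highest level in both groups, 570.0 and 513 CPM in Control and 512 and 496 CPM in Fracture, and were not called (log2 fold change 0.02 ± 0.08, adjusted p = 0.859). Smooth muscle-like cells had 24.8 and 5.44 CPM and 20.2 and 131 CPM, and 149 of the 222 UMIs of Fracture 2 came from 2 cells. In fibroblast-like, chondrocyte-like and osteoblast-like cells it was at most 27.5 CPM in any preparation.

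Igfbp6, whose product prefers IGF-2 over IGF-1, was highest in fibroblast-like cells and was called higher in other classes. BMSC-like cells went from 5.02 and 7.71 CPM to 141 and 138 CPM, with a fitted log2 fold change of 4.64 ± 0.24 (adjusted p = 0.00139) that was called without any 1 preparation (4.38 to 4.98) and was 2.69 without integration. The rise of fibroblast markers in these cells stood beside it, as those markers went from 18.4 and 11.1% of their level over all cells to 156 and 159%, and the part of that in the result was not tested. Chondrocyte-like cells went from 18.1 and 6.58 CPM to 75.8 and 71.1 CPM (log2 fold change 2.71 ± 0.50, adjusted p = 0.0194). With either Fracture preparation left out this was not called (2.18 to 3.62, adjusted p up to 0.115), and without integration it was 3.48 (adjusted p = 0.00252).

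In fibroblast-like cells, which hold most of it, Igfbp6 went from 2229 and 2530.1 CPM to 1516 and 1387 CPM and fell by 0.62 ± 0.11 on the log2 scale (adjusted p = 0.0493). That call sat at the threshold. It was -1.23 (adjusted p = 0.00553) without integration, and it was lost with the size factors of DESeq2 and with doublets left out (adjusted p = 0.0503 in each), with the replicate block (adjusted p = 0.113) and when either Fracture preparation was left out (adjusted p up to 0.493).

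The other rises of Igfbp6 came from low counts. Osteoblast-like cells went from 0.965 and 0.196 CPM to 9.30 and 9.07 CPM (log2 fold change 3.80 ± 0.50, adjusted p = 0.0154) and endothelial-like cells from 8.03 and 0.984 CPM to 43.9 and 27.2 CPM (3.08 ± 0.84, adjusted p = 0.0481). Erythroid-like cells had 1.59 and 0.122 CPM and 2.47 and 6.79 CPM, not far below the osteoblast level. Both calls were lost when either Fracture preparation was left out (adjusted p up to 0.183 and 0.24) and without integration (adjusted p = 0.0552 and 0.0794), and the endothelial one also under the DESeq2 test (0.0526) and among cells of at least 3000 UMIs (0.0546). The osteoblast value was 5.41 without Control 1 and 3.20 without Control 2, the endothelial value was 5.25 and 2.25, and 5 cells held 221 of the 489 UMIs of Fracture 1 and 144 of the 371 of Fracture 2. In smooth muscle-like cells the Controls held 1 and 0 UMIs and the Fracture preparations 61 and 28, a ratio of 137 with a 95% counting interval of 23.9 to 5463. That ratio covers counting error only, and its direction was opposite without integration (log2 fold change -3.01, adjusted p = 0.0552). Without Fracture 1 it was not called (adjusted p = 0.0538). Fibroblast markers in smooth muscle-like cells went from 126 and 200.2% to 311 and 313% of their level over all cells, in osteoblast-like cells from 4.17 and 2.22% to 9.02 and 9.76%, and in endothelial-like cells from 38.6 and 45.2% to 48.2 and 31.7%.

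Igfbp7, which encodes an IGF-binding-protein-related protein abundant in vessel walls, was highest in smooth muscle-like cells of both groups, at 5239 and 6084 CPM in Control and 6480.4 and 6236 CPM in Fracture. It was not called there. It rose in chondrocyte-like cells from 997 and 945 CPM to 2242 and 2061 CPM, with a log2 fold change of 1.30 ± 0.08 (adjusted p = 0.00216) that was called without any 1 preparation (1.25 to 1.36). Endothelial-like cells went from 2937 and 2874 CPM to 5015 and 4890.0 CPM (0.89 ± 0.13 on the log2 scale, adjusted p = 0.0127) and osteoblast-like cells from 29.7 and 14.8 CPM to 109 and 107 CPM (2.22 ± 0.32, adjusted p = 0.0174). Erythroid-like cells, which serve as background, went from 24.2 and 6.77 CPM to 193 and 115 CPM, so the osteoblast value is not read as expression. Neither class overlapped between groups, and both calls were lost without Fracture 1 or Fracture 2 (adjusted p up to 0.125 and 0.179). BMSC-like cells had 1946 and 2245 CPM and 1403 and 1379 CPM, and fibroblast-like cells 3568 and 2792 CPM and 4167 and 4049 CPM, and neither was called.

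Igfbp2 was mainly an endothelial transcript in Control. Its endothelial level went from 44.2 and 41.7 CPM to 13.5 and 10.99 CPM and fell by 1.69 ± 0.13 on the log2 scale (adjusted p = 0.00583), a call lost when either Fracture preparation was left out (-1.82 to -1.55, adjusted p up to 0.108). In BMSC-like cells the level was 2.74 and 0.629 CPM in Control and 36.99 and 6.11 CPM in Fracture (3.81 ± 1.10 on the log2 scale, adjusted p = 0.0424). That value rests on Fracture 1, in which 231 of 379 UMIs came from 5 cells. Without Fracture 1 the log2 fold change was 2.04 (adjusted p = 0.171), it was 3.13 to 5.24 without another preparation, and without integration it was 0.32 (adjusted p = 0.782). The other classes held little Igfbp2 in Control and none was called. Smooth muscle-like cells went from 3.39 and 0.777 CPM to 6.74 and 34.1 CPM (adjusted p = 0.0675), with 47 of the 58 UMIs of Fracture 2 from 1 cell. Chondrocyte-like cells held 3 UMIs in the Controls and 137 in the Fracture preparations (adjusted p = 0.0556). Fibroblast-like cells had 0.983 and 7.47 CPM and 3.76 and 2.15 CPM, and osteoblast-like cells, at 0.257 and 0.0490 CPM and 0.385 and 0.186 CPM, could not be tested.

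The cells of 3 classes, BMSC-like, fibroblast-like and osteoblast-like, were pooled for a second clustering. Among the 6 subclasses were a diaphyseal (dpMSC-like, led by Lpl, Adipoq and Hp) and a metaphyseal (mpMSC-like, led by Mmp9, Limch1 and Angpt4) mesenchymal stromal one, which held 57.8% and 34.2% of the BMSC-like cells and also 49 fibroblast-like and 211 osteoblast-like cells. The mpMSC-like subclass carried 5 of its 6 listed markers, all but Postn. The published study reads stromal cells with Fabp5 and Mmp9 as septoclasts, and such cells were not separated here. A cycling subclass led by Top2a held 377 BMSC-like cells and, with 19 cells in Control 2, was not tested. The dpMSC-like subclass held 1696 and 1236 cells in Control and 424 and 463 in Fracture, and the mpMSC-like subclass 905 and 509 cells and 499 and 532. Of 10 genes tested in dpMSC-like cells 4 were higher and 4 lower, against 28% and 27.2% of all genes, and of 9 in mpMSC-like cells 2 were higher and 4 lower, against 13.7% and 12.2%. The BMSC markers summed to 51221 and 44310.4 CPM in dpMSC-like cells of Control and to 2968 and 3667 CPM in Fracture, fibroblast markers to 35.7 and 21.7 and to 1331 and 1643 CPM, and chondrocyte markers to 551 and 189.6 and to 3481 and 3512 CPM. Cells named dpMSC-like after fracture therefore carried a small part of the marker level seen in Control.

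**Figure D3:**
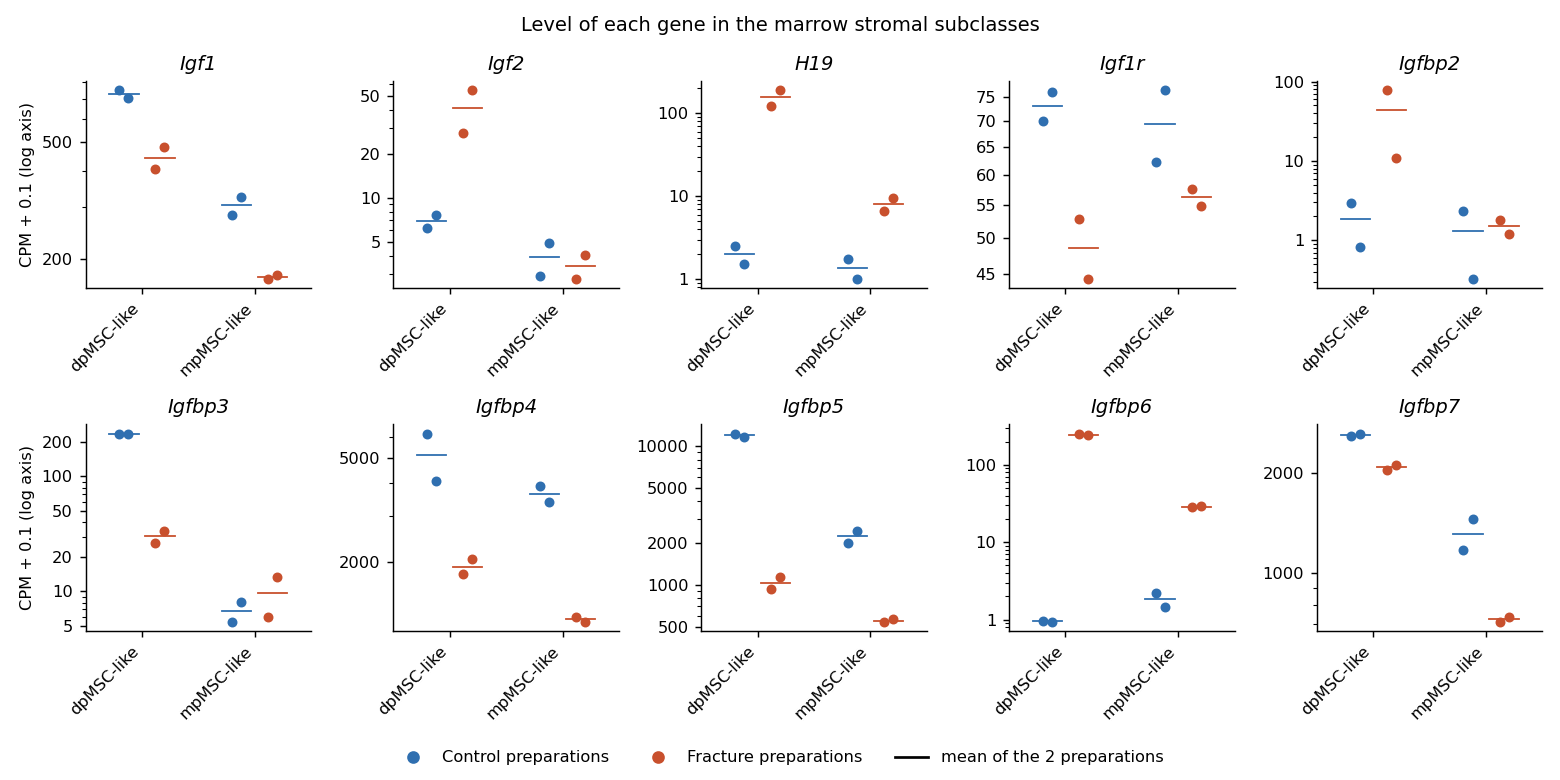
Level of each gene in dpMSC-like and mpMSC-like cells, in CPM plus 0.1 on a log axis, with 1 point per preparation and a line at the mean of the 2 preparations of a group. Igfbp6 lies at 0.857 and 0.834 CPM in dpMSC-like cells of Control and at 253 and 239 CPM in Fracture, and Igfbp5 lies lower in Fracture in both subclasses.

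Within the dpMSC-like subclass the ligand and binding protein genes were as follows. H19 went from 2.45 and 1.43 CPM to 123 and 189 CPM (log2 fold change 6.57 ± 0.37, adjusted p = 0.000395), Igf2 from 6.12 and 7.50 CPM to 27.6 and 54.4 CPM (2.84 ± 0.38, adjusted p = 0.00311) and Igfbp6 from 0.857 and 0.834 CPM to 253 and 239 CPM (8.40 ± 0.12, adjusted p = 9.54e-05). Igfbp3 went from 232 and 236 CPM to 26.3 and 33.6 CPM (-2.71 ± 0.15, adjusted p = 0.000393) and Igfbp5 from 12300.2 and 11711 CPM to 932 and 1136 CPM (-3.29 ± 0.27, adjusted p = 0.000839). These 5 stayed called without any 1 preparation, and no groups overlapped. Igfbp4 (6198 and 4095 CPM in Control, 1791 and 2041 CPM in Fracture, log2 fold change -1.17) was lost without Fracture 1 or Fracture 2 (adjusted p up to 0.128). Igf1 (749.6 and 704 CPM, 404 and 481 CPM, -0.46) was lost without Fracture 1 and with the replicate block (edgeR adjusted p = 0.0502), and ran from -0.60 to -0.31 with 1 preparation left out. Igfbp2 (2.81 and 0.715 CPM, 77.2 and 10.7 CPM, 4.87) was lost without Fracture 1 (2.88) and ran up to 6.13 with another preparation left out.

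In mpMSC-like cells H19 and Igfbp6 rose to lower levels than in dpMSC-like cells. H19 went from 1.63 and 0.915 CPM to 6.60 and 9.38 CPM (log2 fold change 2.72 ± 0.39, adjusted p = 0.0107) and Igfbp6 from 2.08 and 1.37 CPM to 28.3 and 29.01 CPM (4.14 ± 0.21, adjusted p = 0.00185). The Fracture level of H19 was no higher than that of erythroid-like cells (8.89 and 11.4 CPM) and is not read as expression. Igfbp5 went from 2019 and 2451 CPM to 541 and 565 CPM (-1.87 ± 0.13, adjusted p = 0.00268) and Igfbp4 from 3897 and 3387 CPM to 1232 and 1176 CPM (-1.45 ± 0.11, adjusted p = 0.00309). Igfbp7 fell here, from 1173 and 1449 CPM to 712 and 736 CPM (-0.71 ± 0.13, adjusted p = 0.0177), as did Igf1, from 283 and 326 CPM to 171 and 176 CPM (-0.66 ± 0.10, adjusted p = 0.012). Igf2 (2.82 and 4.80 CPM and 2.69 and 3.93 CPM) and Igfbp3 (5.34 and 8.01 CPM and 5.86 and 13.3 CPM) overlapped between groups and were not called. Igfbp5 and Igfbp6 stayed called without any 1 preparation, Igfbp4 was lost without Fracture 1 (adjusted p = 0.054), and H19, Igf1 and Igfbp7 were lost when either Fracture preparation was left out (adjusted p up to 0.0835, 0.104 and 0.13).

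Among the other stromal subclasses, the fibroblast-like one (led by Prg4, Cilp and Cytl1) had 3 higher and 2 lower of 10 genes against 7.65% and 7.81% of all genes. The larger osteoblast-like one (led by Bglap, Bglap2 and Cpz) had 3 higher and 1 lower of 9 against 9.47% and 6.14%. The higher ones were H19, Igfbp6 and Igfbp7, as in the osteoblast-like class, 92.4% of whose cells it held. Their Fracture levels in that class lay below or not far above those of erythroid-like cells, so this count is not read as an excess. In this subclass Igfbp5 went from 70.7 and 44.5 CPM to 29.3 and 28.8 CPM (log2 fold change -1.06 ± 0.21, adjusted p = 0.0352), which was -0.14 (adjusted p = 0.473) with doublets left out and was lost with the replicate block (adjusted p = 0.0568). Erythroid-like cells had 89.3 and 13.9 CPM of Igfbp5 in Control and 13.8 and 10.4 CPM in Fracture. In the small osteoblast-like subclass led by Ptprz1, Gchfr and Dock9, edgeR called none of 5 genes against 1.76% and 0.788% of all genes, and 3 had an unadjusted p under 0.05.

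Chondrocyte-like cells made up 22.6% and 13.6% of the cells of the 6 classes in Control and 58.9% and 57.6% in Fracture, and were clustered again to give 9 subclusters, each called here by its leading genes. The 6 with enough cells in every preparation for a test were led by Mmp13, Spp1 and Dmp1, by Aldh1a3, Pla2g10 and Bmp2, by Chrdl2, Tnn and H2-DMa, by Serpina1a, Serpina1d and Serpina1b, by Slc40a1, Scara3 and Wfdc2, and by the division genes Top2a, Cenpf and Cdk1. In these 6 the Controls held 59 to 804 cells and the Fracture preparations 420 to 2094. The class was a different mixture in the 2 groups. The Serpina1a cluster held 804 of 2070 and 276 of 680 chondrocyte-like cells in Control and 809 of 6803 and 854 of 7130 in Fracture, and the Chrdl2 cluster 233 and 67 in Control and 2003 and 2094 in Fracture. Values of the whole class thus hold both this mixture and the change within each subcluster. The Aldh1a3 cluster carried 5 of 6 hypertrophic chondrocyte markers and the Mmp13 cluster 3, among them Col10a1 and Ihh, and both also carried 3 of 8 osteoblast markers. The lists share Ibsp and Alpl, and Dmp1, which leads the Mmp13 cluster, is an osteoblast marker. The remaining 3 subclusters held 252, 188 and 150 cells, with 7 to 36 in a Control preparation, and were led by genes of osteoblasts (Car3, Ifitm5 and Bglap2), of BMSCs (Cxcl12, Adipoq and Igfbp5) and of red cells (Hbb-bt, Hbb-bs and Hba-a1). They were part of the class values. With them left out all 5 chondrocyte-like calls were kept, at log2 fold changes of 2.27 for Igf1, 3.05 for Igf2, 1.50 for H19, 2.75 for Igfbp6 and 1.31 for Igfbp7. In that refit 6 of the 10 genes were called (6562 of all 17138 genes), in place of 5 (6444 of 17287). The added call is of a gene given above as not called in this class.

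No gene of the 10 was called lower after fracture in any of these subclusters, and 1 to 7 were higher. The Slc40a1 cluster had 7 of 10 higher, against 9.45% and 8.53% of all genes called higher and lower, the Aldh1a3 cluster 6 of 9 against 11.9% and 10.8% and the Chrdl2 cluster 5 of 9 against 11.5% and 9.08%. The Mmp13 cluster had 5 of 9 higher against 4.48% and 5.13%, the Top2a cluster 5 of 8 against 6.7% and 4.66% and the Serpina1a cluster 1 of 9 against 4.82% and 2.21%. Median log2 fold changes of the genes tested were 1.62 to 2.07 in 5 subclusters and 0.14 in the Serpina1a cluster, where the medians over all genes lay between -0.01 and 0.02.

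**Figure D4:**
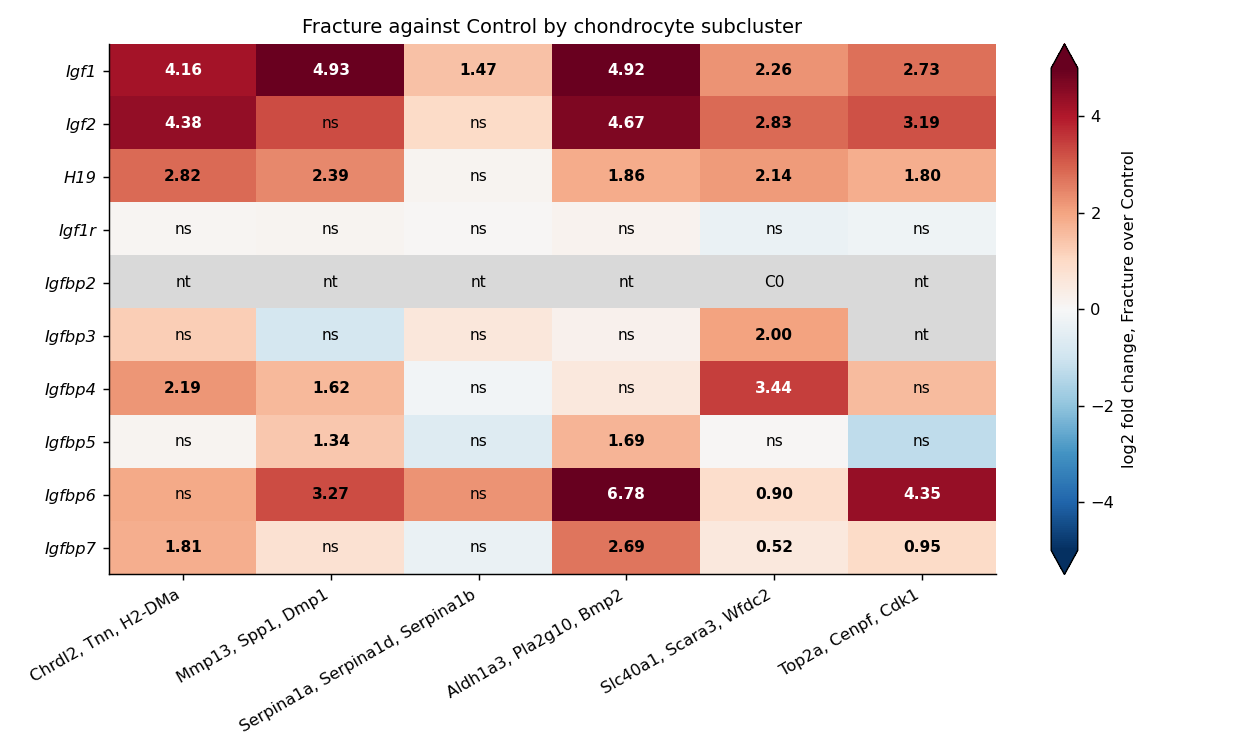
Log2 fold change (Fracture over Control) of each gene in 6 chondrocyte-like subclusters from the edgeR fits, as a colour scale that ends at -5 and 5. Bold numbers are genes called at an adjusted p under 0.05, ns marks those not called, nt those not tested, and C0 on grey a gene with no UMI in Control. Igf1 has a called value in every column, and the Serpina1a column holds no other.

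Igf1 was called in all 6 subclusters. In the Chrdl2 cluster its level went from 2.76 and 0 CPM to 36.9 and 32.4 CPM (log2 fold change 4.16 ± 0.38, adjusted p = 0.00275), in the Mmp13 cluster from 3.42 and 0.946 CPM to 74.02 and 73.4 CPM (4.93 ± 0.29, 0.00146) and in the Aldh1a3 cluster from 0.516 and 3.43 CPM to 45.03 and 42.99 CPM (4.92 ± 0.43, 0.00162). The highest level was in the Slc40a1 cluster, 56.3 and 29.2 CPM in Control and 201 and 184 CPM in Fracture (2.26 ± 0.27, adjusted p = 0.00575). The Top2a cluster went from 3.16 and 3.99 CPM to 17.7 and 23.8 CPM (2.73 ± 0.32, adjusted p = 0.00925) and the Serpina1a cluster from 14.3 and 21.8 CPM to 43.4 and 48.9 CPM (1.47 ± 0.24, adjusted p = 0.0368). Only the Chrdl2 value was called without any 1 preparation. It ran over 3.70 to 4.36 in 3 of those refits and was 12.5 without Control 1, where the lone Control held no UMI and the fitted value is no measure of size. Without Control 1 the Mmp13 value was 6.38 and the Aldh1a3 value 3.68, which was 6.41 without Control 2. The Mmp13 value was lost without Fracture 2 (adjusted p = 0.145), and the others were lost when either Fracture preparation was left out (adjusted p up to 0.254, in the Serpina1a cluster, where the replicate block also ended the call at 0.0552).

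H19 split the subclusters. It went from 51.4 and 63.1 CPM to 359 and 418 CPM in the Chrdl2 cluster (log2 fold change 2.82 ± 0.15, adjusted p = 0.00078), from 112 and 195 CPM to 590.4 and 637 CPM in the Slc40a1 cluster (2.14 ± 0.26, 0.00616) and from 145 and 223 CPM to 559.5 and 622 CPM in the Top2a cluster (1.80 ± 0.22, 0.0101). The Mmp13 and Aldh1a3 clusters were lower throughout, at 15.4 and 4.73 CPM and 55.8 and 58.99 CPM in the Mmp13 cluster (2.39 ± 0.31, adjusted p = 0.01) and 21.9 and 6.30 CPM and 56.2 and 55.9 CPM in the Aldh1a3 cluster (1.86 ± 0.41, adjusted p = 0.0271). In the Serpina1a cluster the levels overlapped, with 97.4 and 195 CPM in Control and 154 and 147 CPM in Fracture, and H19 was not called (log2 fold change 0.14 ± 0.34, adjusted p = 0.818). The Chrdl2 call held without any 1 preparation (2.68 to 2.98), and the other 4 were lost when either Fracture preparation was left out (adjusted p up to 0.292). Over the 4 refits the log2 fold change ran from 1.92 to 3.72 in the Mmp13 cluster, 1.38 to 3.15 in the Aldh1a3 cluster, 1.78 to 2.60 in the Slc40a1 cluster and 1.50 to 2.16 in the Top2a cluster, highest without Control 1 in the Mmp13 and Aldh1a3 clusters.

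Igf2 rose in the Slc40a1 cluster from 7.52 and 1.50 CPM to 37.5 and 37.2 CPM (log2 fold change 2.83 ± 0.36, adjusted p = 0.00675) and in the Top2a cluster from 2.11 and 0.798 CPM to 15.4 and 14.6 CPM (3.19 ± 0.32, adjusted p = 0.00675). Both calls were lost when either Fracture preparation was left out (adjusted p up to 0.112 and 0.0957), with log2 fold changes of 2.46 to 4.75 and 2.95 to 4.28 over the 4 refits, the highest of each without Control 1. In the Chrdl2 and Aldh1a3 clusters the Controls held 3 and 1 UMIs of Igf2 in all, so these calls are given as ratios of levels, 20.3 (95% counting interval 6.92 to 98.8) and 26.7 (4.73 to 1062). The Aldh1a3 call was lost when either Fracture preparation was left out (adjusted p up to 0.129). It was not called in the Mmp13 and Serpina1a clusters, where no preparation exceeded 3.95 CPM.

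The binding protein genes Igfbp4, Igfbp5, Igfbp6 and Igfbp7 each rose in some chondrocyte subclusters. Igfbp6 went from 11.98 and 7.57 CPM to 96.4 and 96.1 CPM in the Mmp13 cluster (log2 fold change 3.27 ± 0.21, adjusted p = 0.00152), and in the Aldh1a3 cluster it had 3 UMIs in the Controls and 2188 in the Fracture preparations, a ratio of levels of 112 (38.3 to 544). Igfbp5, which fell in 4 of the classes, rose in the Mmp13 and Aldh1a3 clusters, from 15.4 and 13.2 CPM to 39.9 and 32.2 CPM (1.34 ± 0.22, adjusted p = 0.018) and from 22.4 and 12.02 CPM to 62.4 and 53.6 CPM (1.69 ± 0.25, adjusted p = 0.00839). Igfbp4 rose most in the Slc40a1 cluster, from 37.3 and 14.2 CPM to 283 and 262 CPM (3.44 ± 0.37, edgeR adjusted p = 0.00429). That value ran from 3.01 to 4.38 with 1 preparation left out. Igfbp7 rose most in the Aldh1a3 cluster, from 237 and 388 CPM to 2094 and 1925 CPM (2.69 ± 0.25, adjusted p = 0.00195). None of these groups overlapped. Without Fracture 2 the Mmp13 value of Igfbp6 was lost (adjusted p = 0.145), without Fracture 1 the Slc40a1 value of Igfbp4 (adjusted p = 0.0518), and without either the values of Igfbp5 (adjusted p up to 0.217 and 0.107).

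Igfbp3 was called only in the Slc40a1 cluster, at 1.21 and 1.50 CPM in Control and 5.29 and 4.23 CPM in Fracture (log2 fold change 2.00 ± 0.43, adjusted p = 0.0293), and this was lost without Control 1 (1.77, adjusted p = 0.16), when either Fracture preparation was left out (1.84 and 2.14, adjusted p up to 0.281) and with the replicate block (adjusted p = 0.0602). Erythroid-like cells had 5.93 and 3.22 CPM in Fracture, so this level is at background. Igfbp2 was not called in any subcluster, and Igf1r was not called in any, with levels of 33.03 to 81.3 CPM over all preparations.

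The class that held the transcripts of a gene changed with both the levels and the cell numbers. Of the Igf1 UMIs in the 6 classes, BMSC-like cells held 84.7% ± 7.31 in Control (mean ± SD, n = 2) and 23.02% ± 1.10 in Fracture, chondrocyte-like cells 3.83% ± 2.10 and 36.9% ± 2.81, and fibroblast-like cells 4.33% ± 3.64 and 32.9% ± 1.19. Over all stromal cells pooled, the level of Igf1 was 111 and 146 CPM in Control and 103 and 110 CPM in Fracture. For Igf2, endothelial-like cells held 53.4% ± 12.1 in Control and 4.70% ± 0.419 in Fracture, and chondrocyte-like cells 5.50% ± 4.93 and 64.4% ± 2.48. H19 came mainly from chondrocyte-like cells in both groups, 93.8% ± 1.53 and 87.7% ± 0.297. Fewer or more cells of a class and less or more RNA per cell both enter these shares.

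**Figure D5:**
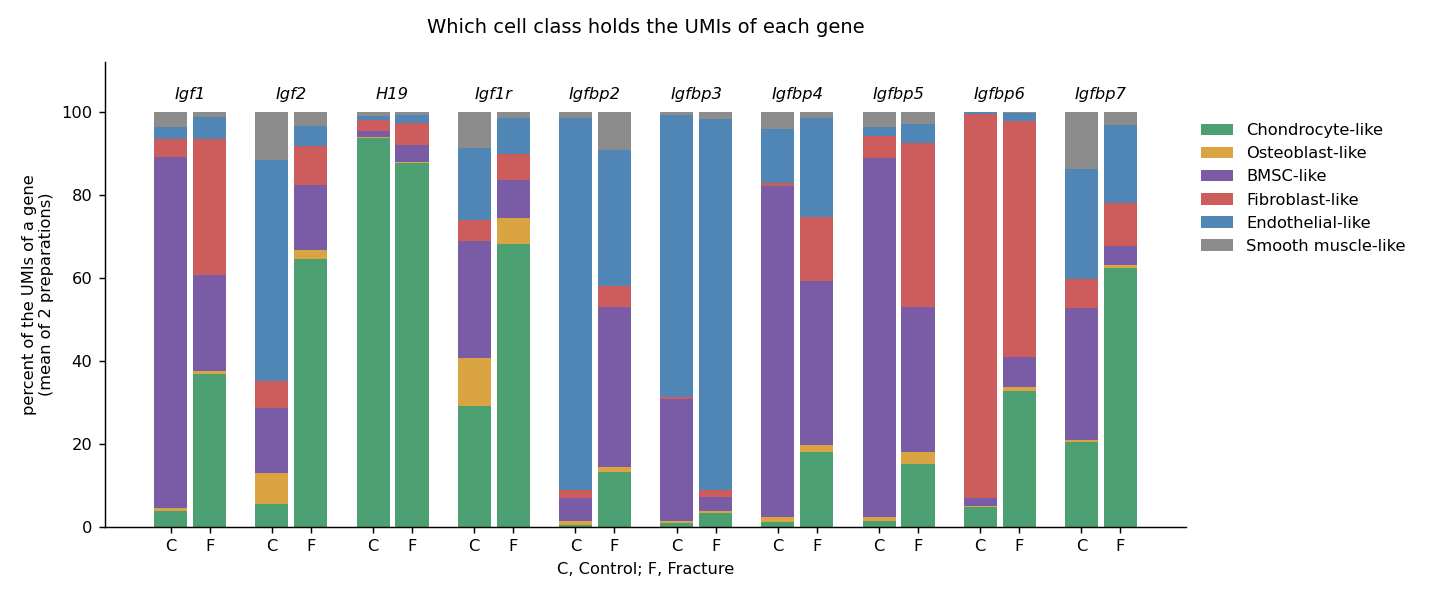
Percent of the UMIs of each gene that came from each of 6 cell classes, as stacked bars of the mean of the 2 preparations, with Control (C) beside Fracture (F). For Igf1 the BMSC-like part goes from 84.7% to 23.02%, and for Igf2 the endothelial-like part from 53.4% to 4.70%.

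For Igfbp5, the BMSC-like share went from 86.5% ± 8.61 to 34.8% ± 1.05 and the fibroblast-like share from 5.28% ± 2.94 to 39.7% ± 0.735, while its pooled stromal level went from 1548 and 2095 CPM to 152 and 167 CPM. Igfbp4 UMIs in BMSC-like cells went from 79.7% ± 1.02 to 39.6% ± 0.365. Igfbp6 came mainly from fibroblast-like cells, 92.5% ± 3.01 in Control and 56.9% ± 1.34 in Fracture, with chondrocyte-like cells at 4.74% ± 3.50 and 32.8% ± 0.711. Igfbp3 came mainly from endothelial-like cells (67.9% ± 1.56 and 89.5% ± 1.95). Igfbp2 had an endothelial-like share of 89.7% ± 6.35 in Control and 32.8% ± 14.7 in Fracture, and a BMSC-like share of 38.6% ± 25.7 in Fracture whose spread reflects Fracture 1.

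Within a gene, the order of the classes was described without a test, since the classes were made from these cells. Igf1 in Control ran from BMSC-like (556 CPM, mean) through fibroblast-like and smooth muscle-like, which overlapped, to endothelial-like, chondrocyte-like and osteoblast-like cells. In Fracture fibroblast-like cells (619 CPM) stood above BMSC-like cells (332 CPM). The Igf1r order was led by smooth muscle-like cells (133 CPM) in Control, whereas in Fracture 5 classes had means between 43.7 and 56.5 CPM and every neighbour overlapped. Igf2 in Fracture was led by smooth muscle-like, BMSC-like and fibroblast-like cells, which overlapped, although 62 of the 79 smooth muscle-like UMIs of Fracture 1 came from 2 cells and 77 were in 1 of its 2 libraries. H19 kept the order chondrocyte-like, fibroblast-like, smooth muscle-like, BMSC-like, endothelial-like and osteoblast-like, with neighbours overlapping between BMSC-like and endothelial-like cells in Control and between fibroblast-like, smooth muscle-like and BMSC-like cells in Fracture.

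The shares of cells with a UMI moved as the levels did in the BMSC-like class when each cell was thinned to 1000 UMIs and shallower cells (69 Control, 0 Fracture) were left out. Igf1 was found in 39.1% and 37.5% of these cells in Control and 18.4% and 19.8% in Fracture (unthinned 68.9% and 76.1% and 38.3% and 41.96%). Igfbp5 was found in 80.7% and 85.2% and 28.8% and 31.4% (unthinned 89.7% and 91.01% and 52.9% and 55.7%) and Igfbp6 in 0.392% and 0.116% and 9.39% and 6.45% (unthinned 0.803% and 0.812% and 27.99% and 24.7%). In erythroid-like cells, which should lack these genes, the thinned shares were 0.493% and 0.113% and 0% and 0.704% for Igf1, 8.05% and 2.20% and 1.42% and 0.704% for Igfbp5 and 0.328% and 0% and 0% and 0.352% for Igfbp6. With 2 preparations against 2, the two-sided exact permutation test cannot give a p under 0.333, so no share could pass.

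Whether the effect of fracture differed between classes was tested as the effect in 1 class minus the mean effect in the other 5, in an edgeR model with the preparation as a block. Of 60 such differences 27 were called, 14 above and 13 below the mean of the others. Chondrocyte-like and BMSC-like cells had 7 each of 10, against 32.6% and 33.5% of all genes, smooth muscle-like cells 5 against 17.2%, osteoblast-like cells 3 against 22.2%, fibroblast-like cells 3 against 14.1% and endothelial-like cells 2 against 20.9%. The effect on Igf1 in BMSC-like cells stood furthest below among those of Igf1, at -1.80 on the log2 scale relative to the mean of the other classes.

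Of 23 further genes of the IGF pathway, Igfbp1, Igf2bp1 and Igf2os could not be tested in any class, as too few UMIs were found. Grb10, an imprinted adaptor that restrains the receptor, and Akt1, a kinase downstream of it, were higher in 6 of 6 classes. Pathway genes are given from the main fit alone, and the share of all genes higher in 6 of 6 classes was not counted. The limit given above for calls in osteoblast-like, fibroblast-like and endothelial-like cells holds for these genes too. In erythroid-like cells Grb10 was at 23.6 and 6.89 CPM in Control and 50.9 and 37.9 CPM in Fracture, and Akt1 at 70.4 and 50.3 and 72.1 and 51.1 CPM. In BMSC-like cells Grb10 went from 156 and 131 CPM to 239 and 238 CPM (0.92 ± 0.10 on the log2 scale, adjusted p = 0.0036) and Akt1 from 107 and 95.6 CPM to 185 and 173 CPM (1.02 ± 0.08, adjusted p = 0.00222). Akt2 was not called in any of the 6. Htra1, a protease known to cut binding proteins, was higher in 4 classes, in osteoblast-like cells from 27.2 and 26.8 CPM to 119 and 104 CPM (1.98 ± 0.08, adjusted p = 0.00203), against 56.8 and 36.8 CPM in erythroid-like cells of Fracture, and Igf2r, which clears IGF-2, was higher in 3.

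BMSC-like cells had 4 higher and 12 lower of the 20 pathway genes tested there, against 25.6% and 26.1% of all genes, with a median log2 fold change of -0.54. Pappa, the protease that cuts IGFBP-4, went from 754 and 864 CPM to 116 and 144 CPM (-2.44 ± 0.16, adjusted p = 0.0016) and Ghr, the growth hormone receptor gene, from 417 and 539 CPM to 68.3 and 75.2 CPM (-2.54 ± 0.16, adjusted p = 0.00158). Igfbp4 and Pappa both fell in these cells. Pappa itself set this cluster apart from the others, with and without integration of the libraries. The summed BMSC markers of the class also fell, as given above. The part of that marker loss in the Pappa, Ghr and Igfbp4 values was not tested. Pik3r1, a regulatory subunit of phosphoinositide 3-kinase, fell by 1.76 on the log2 scale there. Ghr also fell in osteoblast-like cells (-1.11 on the log2 scale) and rose in chondrocyte-like cells (0.93), where Pappa2 (-3.26) and Stc2, which encodes an inhibitor of pappalysin (-0.85), fell. Insr, the insulin receptor gene, fell in 3 classes and rose in 1. In endothelial-like cells it went from 238 and 309 CPM to 82.8 and 84.2 CPM (-1.59 ± 0.15 on the log2 scale, edgeR adjusted p = 0.00636).

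In the other classes, 8 pathway genes were higher and 4 lower of 20 in chondrocyte-like cells (median log2 fold change 0.10), 6 and 1 of 19 in osteoblast-like cells (-0.01), 3 and 2 of 17 in fibroblast-like cells (-0.27), 6 and 2 of 18 in endothelial-like cells (0.11) and 4 and 4 of 17 in smooth muscle-like cells (-0.37). These counts stand against the shares of all genes called given above for the same classes.

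The genes whose levels followed each member most closely over the 24 sums of class and preparation were found by Pearson correlation of log2(CPM + 1) among 6597 genes with a mean of at least 20 CPM. The 24 sums share preparations and classes, so the values are descriptions. Igf1 was nearest to Spg21 (r = 0.95), Fbn1 (0.943) and Dtnbp1 (0.932), and H19 to Ldha (0.947), Mif (0.941) and Rexo2 (0.938). The nearest gene was Pdlim5 for Igf2 (0.863), Akap11 for Igf1r (0.938), Psmd3 for Igfbp2 (0.901), Znrf1 for Igfbp3 (0.974), Fkbp8 for Igfbp4 (0.955), Ank3 for Igfbp5 (0.949), Medag for Igfbp6 (0.957) and Tle1 for Igfbp7 (0.954). Among the members, Igf1r and Igfbp7 (0.82), Igf1 and Igfbp4 (0.795), Igf1 and Igfbp5 (0.794) and Igfbp4 and Igfbp5 (0.792) followed each other most closely. The neighbours Igf2 and H19 had r = 0.287.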

How the data were processed

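The deposited values were raw counts of UMIs for each gene in each barcode of 8 libraries, which the authors made from Chromium 3' version 3 reads on mm10. The submitters' processing notes name bcl2fastq 2.19.1.403, UMI-tools 1.0.0, STAR 2.7.3a and featureCounts 1.6.4, and the published methods name STARsolo and EmptyDrops for the study. The step that selected barcodes for these tables was not given in the sources used here.

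Genes in at least 3 cells (26357) and cells with 500 to 6000 genes were kept if 26 mitochondrial genes gave at most 25% of their UMIs, 20676 of 24162 Control barcodes (85.6%) and 24652 of 24741 Fracture barcodes (99.6%). Libraries were integrated in Seurat 5.3.0 (30 dimensions) and clustered with 12 components at a resolution of 0.1, and subclusters used 13 components at 0.08 (stroma) and 0.2 (chondrocytes). The 10 genes, both gene lists and cell cycle genes were left out of the clustering. Clusters were named from marker lists. Doublets, scored with scrublet in scanpy 1.11.5 at an expected 6%, numbered 718 (1.58%) and were kept outside an alternative without them.

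The cell preparation was the replicate, with its 2 libraries summed, which differed by a median of 12.0% over 162 values with at least 50 UMIs in each. Groups came from the sample titles. UMIs were summed per class and preparation (at least 20 cells) and tested with edgeR 4.0.16 (quasi-likelihood, TMM, its filter on low counts) on R 4.3.3, with Benjamini-Hochberg adjustment over all genes of a class. CPM are UMIs scaled to a class sum of 1000000. The mean log2 TMM factor of Fracture minus that of Control was -0.19 to 0.07 in the 6 classes and -0.25 in dpMSC-like cells. Fold changes include these factors and the printed CPM do not, so a negative value raises the fold change above the ratio of CPM. The test was also run on simulated data, and the outcome is not reported here. Intervals and shares cover counting error only. Alternatives were DESeq2 1.42.0, its size factors, no filter, no integration, no doublets, cells of at least 3000 UMIs, a replicate block and each preparation left out. Gene positions are from GENCODE M21 (GRCm38). All 10 genes were named in every comparison, other genes came from an IGF pathway list of 23 and an imprinted list of 15, and the 3 most correlated genes were sought for each. The genes, lists and tests were chosen with earlier results of these data known. The correlation of deviations of same-numbered preparations was 0.027 to 0.097. With 1 deviation per group this cannot exclude pairing, and the replicate block was run as an alternative.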

Additional observations from a re-analysis of the deposited data

Results flagged for a closer look

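Each value here is a difference between classes that passed the test of the difference itself, given as the log2 effect of fracture in 1 class minus the mean effect in the other 5 (edgeR with a preparation block, adjusted p under 0.05). Groups of 2 preparations are too small for the test of a sample that stands apart.

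In chondrocyte-like cells the effect was higher than in the other classes for Igf1 (1.28), Igf2 (2.83), Igf1r (0.39), Igfbp4 (1.67), Igfbp5 (1.15) and Igfbp7 (0.59) and lower for H19 (-2.74), although H19 rose in these cells. The mean of the other classes for H19 (4.27) includes the osteoblast-like value (4.34), which is not read as expression, and the smooth muscle-like one (3.96), carried by few cells. The Igfbp7 difference was lost when either Fracture preparation was left out (adjusted p up to 0.206), those of Igf1 (adjusted p = 0.0617) and Igfbp5 (0.0798) without Fracture 1 and that of Igf1r (0.074) without Fracture 2. The Igfbp4 difference was 2.24 with doublets left out, 2.90 without Control 1 and 1.05 without Control 2, and the Igfbp5 difference 0.74 without Control 2. In BMSC-like cells it was higher for Igf2 (1.87) and H19 (2.22) and lower for Igf1 (-1.80), Igfbp3 (-2.87), Igfbp4 (-1.39), Igfbp5 (-1.999) and Igfbp7 (-1.46). The Igf2 effect in BMSC-like cells was -0.18 without integration, and the differences between classes were not refitted without it. The BMSC-like difference of H19 was not called with doublets left out (2.11, adjusted p = 0.0723), among cells of at least 3000 UMIs (2.15, adjusted p = 0.0564), without Control 1 (adjusted p = 0.52) or without Control 2 (adjusted p = 0.236), that of Igf2 was not called without Control 1 (1.22, adjusted p = 0.082), and that of Igfbp4 was lost when either Fracture preparation was left out (adjusted p up to 0.137).

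Osteoblast-like cells stood above the other classes for Igf1r (0.88), Igfbp5 (1.10) and Igfbp7 (1.75), of which the Igfbp7 level was no higher than that of erythroid-like cells in Fracture. The Igfbp5 difference was lost when either Fracture preparation was left out (0.97 to 1.17 over all 4 refits). Osteoblast-like levels of Igfbp5 in Control lay within the range of the erythroid-like Control levels given above. Fibroblast-like cells stood above the other classes for Igf1 (1.22) and Igfbp4 (1.99) and below them for Igfbp6 (-4.87, -6.68 to -4.36 with 1 preparation left out), a difference from a mean (4.20) that includes the smooth muscle-like value of 6.76, which rests on 1 Control UMI. Those of Igf1 (0.84 to 1.93, adjusted p up to 0.121) and Igfbp4 (1.39 to 2.49, adjusted p up to 0.0655) were lost when either Fracture preparation was left out, with these ranges over all 4 refits. Endothelial-like cells stood below the other classes for Igf2 (-3.53) and Igfbp2 (-3.85). The other classes of the Igf2 difference include the BMSC-like rise of Igf2, which became -0.18 without integration. The other classes of the Igfbp2 difference include osteoblast-like cells, which had too few UMIs for a test of their own, chondrocyte-like cells with 3 Control UMIs and the BMSC-like rise, which was 0.32 without integration. Smooth muscle-like cells stood below for Igf1 (-1.33), Igf1r (-0.89), Igfbp4 (-1.91) and Igfbp7 (-0.67) and above for Igfbp3 (2.56), the last of which was not called without Fracture 2 (0.65, adjusted p = 0.756). The smooth muscle-like differences of Igfbp4 (adjusted p up to 0.0728) and Igfbp7 (adjusted p up to 0.198) were lost when either Fracture preparation was left out, and that of Igf1 without Fracture 1 (-1.26, adjusted p = 0.115), the last being -0.86 without Control 2. Without Control 1 the chondrocyte-like differences were -3.61 for H19 and 3.71 for Igf2, the BMSC-like ones 2.86 for H19 and -3.86 for Igfbp3 and the endothelial-like one -4.46 for Igfbp2, and without Fracture 1 the smooth muscle-like difference of Igfbp3 was 3.28. Over all 4 refits that smooth muscle-like difference of Igfbp3 ran from 0.65 to 3.95, and that of Igf1 from -1.99 to -0.86.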

How the results depend on the processing

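Of 36 calls in the classes, 35 were kept with the size factors of DESeq2, under its test and among cells of at least 3000 UMIs, 34 with doublets left out, 36 with no filter on low counts, 35 without Control 1, 36 without Control 2, 8 without Fracture 1 and 12 without Fracture 2. A refit with 1 preparation in a group assumes that it varies like those of the other group. Of 27 differences between classes, 26, 27, 26, 25, 26, 17 and 18 were kept with at least 3000 UMIs, DESeq2 size factors, doublets out and each preparation left out in turn, and of 52 subclass calls 51, 52, 15 and 19 were kept without Control 1, Control 2, Fracture 1 and Fracture 2. Without integration 30 of 36 class calls were kept, 4 were lost and 2 changed direction, Igf2 in BMSC-like cells (-0.18) and Igfbp6 in smooth muscle-like cells (-3.01), and the smooth muscle-like count was 3 in place of 5. The osteoblast-like count was 5 under the DESeq2 test and 5 without a filter, in place of 3. With the replicate block 30 of 36 class calls and 47 of 52 subclass calls were kept, the fibroblast-like count was 2 in place of 6 (3.91% of all genes called in place of 16%), and the Serpina1a count was 0 in place of 1 (1.2% in place of 7.03%). Leaving out the clusters under 100 cells kept 5 of 5 smooth muscle-like calls and leaving out the 3 smallest chondrocyte subclusters 5 of 5 chondrocyte-like calls, both alternatives chosen after seeing the data. The chondrocyte-like count was then 6 in place of 5. It was also 6 with doublets left out, under the DESeq2 test, without a filter and with the replicate block. The difference in the share of endothelial-like cells with a UMI, Fracture minus Control, was positive before thinning for Igf1r (0.848 percentage points) and Igfbp4 (9.56) and negative after it.

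With 1 preparation left out, the numbers called moved with the share of all genes called, which is given in brackets. They ran from 2 to 9 in chondrocyte-like (1.84% to 48%), 0 to 7 in osteoblast-like (0% to 36.8%), 5 to 10 in BMSC-like (17.6% to 60.6%), 0 to 8 in fibroblast-like (0% to 32.4%), 0 to 9 in endothelial-like (0% to 46.9%) and 1 to 5 in smooth muscle-like cells (3.65% to 27.1%). In the chondrocyte subclusters they ran from 4 to 8 (Chrdl2, 4.31% to 31%), 0 to 6 (Mmp13, 0.01% to 18.7%), 0 to 6 (Serpina1a, 0% to 22.1%), 2 to 7 (Aldh1a3, 2.86% to 28.8%), 0 to 9 (Slc40a1, 1.78% to 26.9%) and 0 to 7 (Top2a, 0.571% to 22.5%), and in the stromal ones from 0 to 7 (Bglap, 0% to 36.6%), 5 to 9 (dpMSC-like, 31.7% to 59.8%), 2 to 6 (mpMSC-like, 1.53% to 32.8%), 0 to 9 (fibroblast-like, 0% to 33.5%) and 0 to 4 (Ptprz1, 0% to 11.9%). Differences between classes ran from 4 to 8 in chondrocyte-like (16% to 34%), 5 to 7 in BMSC-like (15% to 32%), 2 to 4 in osteoblast-like (5.58% to 25.2%), 1 to 6 in fibroblast-like (3.74% to 13.9%), 2 to 3 in endothelial-like (6.8% to 21.8%) and 2 to 7 in smooth muscle-like cells (6.18% to 17.6%). In the 23 edgeR fits that called none of the genes, 1 to 8 of them had an unadjusted p under 0.05.

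Genes with under 4 Control UMIs in all have ratios known only to within the counting intervals given.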

Other observations

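Imprinted growth genes other than Igf2 and H19 were counted, in the main fit alone, over a list of 15, of which Usp29 could not be tested. In BMSC-like cells 7 were higher and 4 lower of 13, against 25.6% and 26.1% of all genes (median log2 fold change 1.09), in endothelial-like cells 8 and 1 of 12, against 19.4% and 17.2% (2.14), and in smooth muscle-like cells 6 and 0 of 10, against 13.6% and 12.5% (2.40). In osteoblast-like cells 6 were higher and 0 lower of 11, against 10% and 6.87% (0.87), in fibroblast-like cells 5 and 2 of 11, against 8.23% and 7.74% (0.61), and in chondrocyte-like cells 6 and 2 of 14, against 19.2% and 18.1% (0.00). Of the 6 genes higher in osteoblast-like cells, 5 (not Rian) were also at a higher level in both Fracture preparations of erythroid-like cells than in both Controls, Peg10 at no more than 1.07 CPM. Peg3 was there at 2.66 and 0.612 CPM in Control and 56.8 and 30.01 CPM in Fracture, Meg3 at 0.531 and 0.163 CPM, then 13.3 and 10.4 CPM, Plagl1 at 2.13 and 0.448 CPM, then 18.8 and 8.58 CPM, and Cdkn1c at 3.45 and 1.30 CPM, then 37.03 and 13.9 CPM. The part of this in the counts was not tested. Over all genes the medians lay between -0.03 and 0.01.

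Meg3, a noncoding RNA of the Dlk1 locus, was called higher in 5 classes. For this list too, the share of all genes called in as many classes was not counted. Its Fracture level in erythroid-like cells, which should lack it, was 13.3 and 10.4 CPM, so the osteoblast-like level (10.9 and 10.9 CPM) is not read as expression. In BMSC-like cells it went from 10.6 and 4.09 CPM to 282 and 260.4 CPM (log2 fold change 5.39 ± 0.51, edgeR adjusted p = 0.00276), while chondrocyte-like cells had 421 and 361 CPM and 326 and 347 CPM and were not called. Peg3, a zinc finger gene, was higher in 5 classes and at 56.8 and 30.01 CPM in erythroid-like cells of Fracture, in chondrocyte-like cells from 463 and 421 CPM to 826 and 844 CPM (1.07 ± 0.07, adjusted p = 0.00235) and in BMSC-like cells with a log2 fold change of 2.76 ± 0.11. Rian, another noncoding RNA of the Dlk1 locus, was called higher in 5, at 0.770 and 0.837 CPM of Fracture in osteoblast-like cells, and Mest, a gene of mesoderm, was higher in 4 (4.15 ± 0.35 in BMSC-like cells). Dlk1, a Notch family ligand gene, went from 3.13 and 4.66 CPM to 152 and 157 CPM in smooth muscle-like cells (5.42 ± 0.21, adjusted p = 0.00222). Impact was lower in 3 classes.

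The blood cells that the bead depletion had left carried some of the members. Igf1r was at 187 and 231 CPM in granulocyte-like cells of Control and 128 and 127 CPM in Fracture, and at 230.3 and 267 and 175 and 259 CPM in megakaryocyte-like cells. Igfbp4 was at 497 and 356 CPM in monocyte-like cells of Control and 203 and 137 CPM in Fracture. The Fracture values of the megakaryocyte-like and monocyte-like cells rest on 23 and 23 and on 13 and 12 cells, and no test was run on them.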
